A study of Mus musculus with 6 samples.

Results

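Type II taste cells detect sweet, umami and bitter compounds, and the genes described here encode the signalling chain that these cells share behind their different receptors. The cascade was defined by name as 8 genes: the G protein subunits Gnat3, Gnb3 and Gng13, the phospholipase Plcb2, the IP3 receptor Itpr3, the cation channel Trpm5, the ATP release channel Calhm1 and the regulator of G protein signalling Rgs21. Of the 8 symbols, 7 matched a row among the 23361 genes of the deposited table, and Rgs21 was not analysed here. The RNA came from taste cells drawn by suction out of the CV (circumvallate) and Fol (foliate) papillae, which hold the taste buds of the posterior tongue, after enzyme digestion of the epithelium. All mice were C57BL/6, and the labels name no other allele and no agent in either age group. The 2 month group had 3 libraries, each a pool from 4 mice, and the 6 month group had 3 libraries, each a pool from 3 mice. The design text of the series names 3 and 6 months in one place, whereas every sample label gives 2 or 6 months.

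In the taste bud, a tastant bound to a G protein-coupled receptor releases the gustducin alpha subunit from its beta-gamma partner. The beta-gamma dimer activates phospholipase C beta, which makes the messenger IP3, and IP3 opens its receptor on the calcium store. The rise in calcium opens Trpm5, the cell depolarizes, and ATP leaves through a CALHM channel to reach the taste nerve without a conventional synapse. Type II cells have a limited life and are replaced from basal progenitors, so the amount of cascade mRNA in a pool depends on how many type II cells it holds as well as on the content of each cell. In these bulk pools, fewer type II cells and less RNA per cell cannot be told apart.

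The members do not lie together in the genome. In the GENCODE annotation of GRCm38, Gnat3 lies on chromosome 5 from 17962549 to 18019834, Gnb3 on chromosome 6 from 124834240 to 124840275, and Plcb2 on chromosome 2 from 118707517 to 118728438. Trpm5 lies on chromosome 7 from 143069153 to 143094642, Calhm1 on chromosome 19 from 47140909 to 47144254, and Rgs21 on chromosome 1 from 144516648 to 144567667. Gng13, from 25717171 to 25719406, and Itpr3, from 27057304 to 27122223, are both on chromosome 17. Their longest annotated transcripts run from 719 bases in 3 exons for Gng13 to 8990 bases in 58 exons for Itpr3.

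The starts of these genes also differ in sequence, and 3 of them are shown, Itpr3 and Rgs21 for the highest and lowest GC content and the motif matches among the members, and Gnat3 as the start of the gustducin gene. RefSeq windows of 300 bases on GRCm38.p6, from 250 before to 50 after an annotated start, were found for 7 of the 8 members, with a pair of starts for Gng13. Each window is printed along its gene's strand, and capitals mark a match to the octamer ATGCAAAT on either strand, the site of POU factors such as Pou2f3, which is needed for type II cells to form.
Itpr3, chr17:27057054-27057353, plus strand: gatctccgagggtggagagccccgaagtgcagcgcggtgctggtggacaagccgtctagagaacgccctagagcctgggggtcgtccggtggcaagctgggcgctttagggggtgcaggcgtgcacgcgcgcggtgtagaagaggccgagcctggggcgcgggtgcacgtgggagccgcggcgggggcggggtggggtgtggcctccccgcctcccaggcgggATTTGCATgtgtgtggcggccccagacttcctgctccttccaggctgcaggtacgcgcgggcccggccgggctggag
Rgs21, chr1:144567618-144567917, minus strand: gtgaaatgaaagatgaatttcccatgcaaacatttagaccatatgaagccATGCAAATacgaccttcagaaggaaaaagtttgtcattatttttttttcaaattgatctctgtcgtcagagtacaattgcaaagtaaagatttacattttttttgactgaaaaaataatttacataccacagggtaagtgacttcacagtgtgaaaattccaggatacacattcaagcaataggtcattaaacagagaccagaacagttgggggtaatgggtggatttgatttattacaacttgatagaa
Gnat3, chr5:17962320-17962619, plus strand: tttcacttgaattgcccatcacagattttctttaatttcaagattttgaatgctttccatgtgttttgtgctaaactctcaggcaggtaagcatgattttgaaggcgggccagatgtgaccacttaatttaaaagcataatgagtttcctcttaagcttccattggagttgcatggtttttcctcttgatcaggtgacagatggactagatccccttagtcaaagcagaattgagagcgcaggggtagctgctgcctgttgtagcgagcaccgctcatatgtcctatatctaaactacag
The octamer was present in the windows of Itpr3 and Rgs21, or 2 of the 7 genes, and in 1.74% of all 32851 windows of the reference. In Itpr3 it stood in reverse, as ATTTGCAT, from 27 to 20 bases before the start, and in Rgs21 forward, from 200 to 193 bases before the start. The AP-1 site TGANTCA, the site of the Fos and Jun factors the study is about, was found in 7.81% of all windows and in 0 of the windows of the 7 genes, which says only that these letters are not in these stretches. A match is a description of letters and was not tested as a binding site.

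Base composition set Itpr3 and the downstream start of Gng13 apart from the other starts. The Itpr3 window held 30 CpG dinucleotides at a GC content of 72.3%, and the downstream Gng13 window held 34 at 72.0%. In the other 6 windows, there were 2 to 6 CpG dinucleotides, at GC contents from 33.3% in Rgs21 to 62.0% at the upstream start of Gng13. Over all windows the median was 7 CpG dinucleotides, with quartiles of 3 and 20, and the median GC content was 52.7%. Gnat3, Plcb2, Trpm5 and Calhm1 had 4, 5, 5 and 6 CpG dinucleotides.

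The deposited table holds 1 FPKM value for each gene and age, in which the authors combined the 3 libraries of an age. FPKM scales the fragments of a gene to transcript length and to the size of the library, so levels of different genes can be compared per length. Values of single libraries were not analysed here. No SD, interval or test is therefore given for any difference below, and the authors' own p-value for each gene was not used. The spread between pools is not known here for any gene, and no gene is said to rise or fall with age. The number of reads behind each value is also unknown, since FPKM does not carry it.

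Cascade mRNA was abundant at both ages apart from that of the ATP channel. The gustducin alpha subunit gene Gnat3 had 84.7 FPKM at 2 months and 79.9 at 6 months. Gnb3, the beta subunit found in type II cells and in cone photoreceptors, had 124 FPKM at 2 months and 113 at 6 months. Gng13, the gamma subunit, had 148 FPKM at 2 months and 126 at 6 months, the highest level in the cascade at either age. All 3 G protein subunits lay at percentiles from 91.7 to 95.3 of the 12652 genes whose values at the 2 ages averaged 1 FPKM or more, which are called expressed here.

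The effectors were lower than the G protein that drives them. Plcb2, which cleaves the membrane lipid PIP2 to make IP3, had 53.3 FPKM at 2 months and 55.1 at 6 months. Itpr3, the calcium release channel of type II cells and of many other epithelia, had 35.0 FPKM at 2 months and 42.1 at 6 months. Trpm5, the calcium-gated monovalent cation channel, had 29.1 FPKM at 2 months and 27.7 at 6 months. These 3 genes were between the 74.6 and 87.6 percentiles of the expressed genes.

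Calhm1, a pore subunit of the voltage-gated ATP channel, was the exception, with 2.39 FPKM at 2 months and 2.77 at 6 months. Its level was at the 12.9 percentile of expressed genes at 2 months and the 15.6 percentile at 6 months. Trpm5, the next gene in the order of level, was 12.2 times as high at 2 months and 10.0 times at 6 months. Its partner subunit Calhm3 matched no row under either of its symbols and was not analysed here.

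**Figure D1:**
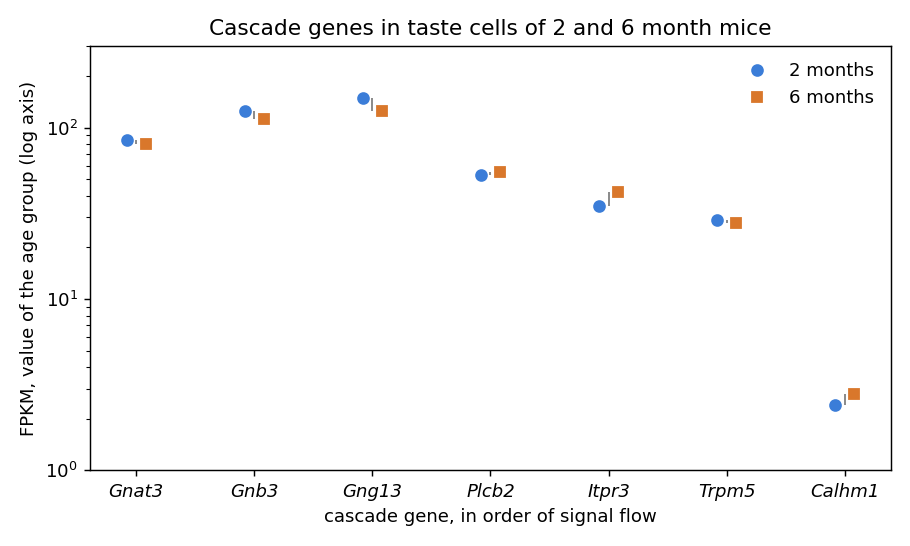
FPKM of the 7 cascade genes on a log axis, with the genes on the horizontal axis in order of signal flow; circles are the authors' value for 2 months and squares that for 6 months, each 1 value over 3 libraries with no error bar available. The G protein genes lie between 79.9 and 148 FPKM, Plcb2, Itpr3 and Trpm5 between 27.7 and 55.1 FPKM, and Calhm1 at 2.39 and 2.77 FPKM.

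The order of levels, Gng13, Gnb3, Gnat3, Plcb2, Itpr3, Trpm5 and then Calhm1, was the same at both ages. Neighbours in this order were close in several places, and without library values it cannot be said which of them differ beyond their spread. Gng13 was 1.19 times as high as Gnb3 at 2 months and 1.11 times at 6 months, the narrowest step at both ages. The step from Gnb3 to Gnat3 was 1.47 times at 2 months and 1.41 times at 6 months, and that from Gnat3 to Plcb2 was 1.59 and 1.45 times. Plcb2 stood 1.52 times above Itpr3 at 2 months and 1.31 times at 6 months. The step between Itpr3 and Trpm5 was the only one of the 6 to widen, from 1.21 times at 2 months to 1.52 times at 6 months.

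The 2 ages differed by less than 1.5-fold for every member. Differences are given on the scale of log2(FPKM + 1), as the 6 month less the 2 month value, a scale that understates the difference of weakly expressed genes such as Calhm1. A 1.5-fold difference on this scale was reached by 0 of the 7 members, where 2.77% of the expressed genes reached it in either direction. That background includes 79 genes listed at 0 at 1 age, and without them it was 2.16%. With so small a share over all genes, 0 of 7 is no result particular to the cascade. The median difference of the members was -0.07, and that of all expressed genes was -0.01, with quartiles of -0.10 and 0.08. Gnb3, Gng13, Itpr3 and Calhm1 lay outside these quartiles.

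In direction, 4 of the 7 members were lower at 6 months, where 53.7% of the expressed genes were lower by any amount. The 3 G protein subunits and Trpm5 had the lower values at 6 months, and Plcb2, Itpr3 and Calhm1 the higher values. When both ages were scaled to the same total without microRNA and small nucleolar RNA genes, whose part of the total FPKM was 8.72% at 2 months and 10.9% at 6 months, Gnat3 and Trpm5 were slightly higher at 6 months and 2 of the 7 remained lower. This scaling moved the median of all expressed genes to 0.07.

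As deposited, the widest differences were those of Itpr3 and Gng13, in opposite directions. Itpr3 was 20.3% higher at 6 months, a log2 difference of 0.26, and 11.1% of the expressed genes differed by as much in either direction. Gng13 had a log2 difference of -0.24, a size that 13.4% of the expressed genes reached. Calhm1 followed with 0.15 and Gnb3 with -0.14, sizes that 28.3% and 32.7% of the expressed genes reached. Gnat3, at -0.08, Trpm5, at -0.07, and Plcb2, at 0.05, were each within the size that over 50% of the expressed genes had. With the same total without small RNA genes, Itpr3 was at 0.35, Calhm1 at 0.22, Plcb2 at 0.14 and Gng13 at -0.14, so that Gng13 was then the fourth in size.

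**Figure D2:**
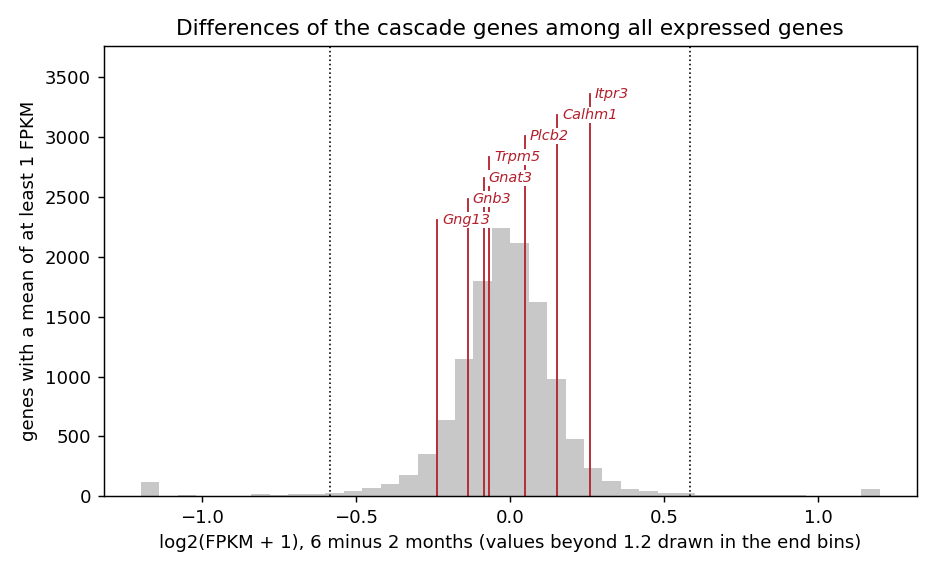
Histogram of the difference in log2(FPKM + 1), 6 minus 2 months, over the 12652 expressed genes, in bins along the horizontal axis with the number of genes on the vertical axis; red lines mark the 7 cascade genes and dotted lines a 1.5-fold difference. All 7 lines fall between -0.24 and 0.26, inside the dotted lines.

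Exon sharing with other genes touches 3 of these values. On the opposite strand, the gene Chtf18 shares 399 exon bases with Gng13, or 51.6% of the annotated exon bases of Gng13. The sources used here do not say that strand was counted, so reads of the pair cannot be told apart there. Chtf18 was listed at 5.36 and 5.54 FPKM, a log2 difference of 0.04. Trpm5 shares 220 exon bases, or 3.44%, with Tssc4 on the opposite strand, which had 24.0 FPKM at 2 months and 22.1 at 6 months. Itpr3 shares 233 exon bases, or 2.58%, with the antisense RNA Itpr3os, for which no value was analysed here.

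Ratios between members do not depend on how the ages are scaled. The summed level of Gnat3, Gnb3 and Gng13 was 358 FPKM at 2 months and 319 at 6 months, while that of Plcb2, Itpr3, Trpm5 and Calhm1 was 119.7 and 128 FPKM. The G protein genes were therefore 2.99 times the downstream genes at 2 months and 2.50 times at 6 months. Between single genes the ratio of Gng13 to Itpr3 differed most among those compared, at 4.24 at 2 months and 2.99 at 6 months. The ratio of Gnat3 to Trpm5, 2.91 at 2 months and 2.88 at 6 months, was nearly the same at both ages. The sum of all 7 members was 477 FPKM at 2 months and 446 at 6 months.

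Each member was then placed among the genes of its own family, to ask whether the taste form had the highest level. The levels are those of whole pools, which also held cells other than taste cells. For the IP3 receptor and Trpm5 it had. Plcb2 was also the highest of its family, by a narrow margin that cannot be set against a spread. Itpr3 held 77.5% of the summed FPKM of the 3 IP3 receptor genes at 2 months and 79.2% at 6 months. Itpr2 had 7.87 and 9.02 FPKM, and Itpr1, the main form of neurons, 2.31 and 2.07 FPKM. Plcb2 held 47.5% of the phospholipase C beta genes at 2 months and 47.4% at 6 months, closely followed by the widely expressed Plcb3 at 49.0 and 53.2 FPKM. Plcb4 was at 9.67 and 7.73 FPKM.

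Trpm5 led the 8 TRPM channel genes with 46.6% of their summed FPKM at 2 months and 43.8% at 6 months. Trpm4, the other calcium-activated monovalent cation channel of this family, was next with 18.0 FPKM at 2 months and 19.5 at 6 months. Trpm7, a channel with a kinase domain found in most cells, had 10.6 and 10.9 FPKM. The cold sensor Trpm8 was at 0.00855 FPKM at 2 months and listed at 0 at 6 months.

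For the G protein the taste forms were among several abundant forms. Gnat3 had rank 3 of 16 alpha subunit genes at both ages, with 12.9% of their summed FPKM at 2 months and 12.4% at 6 months. Gnas, whose product stimulates adenylyl cyclase, was at 283 and 266 FPKM, and the inhibitory subunit gene Gnai2 at 93.2 and 96.4 FPKM. The transducins of rods and cones, Gnat1 and Gnat2, which are the closest relatives of gustducin, were at 0.569 and 0.0812 FPKM at 2 months and at 0.566 and 0.0645 FPKM at 6 months.

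Gnb3 held 25.9% of the summed FPKM of 5 beta subunit genes at 2 months and 24.2% at 6 months. Its place against Gnb1 turned over between the ages, from 124 against 122 FPKM at 2 months to 113 against 119 FPKM at 6 months, and Gnb2 was above both at 225 and 226 FPKM. Gng13 held 27.7% of the 12 gamma subunit genes at 2 months and 26.3% at 6 months. Gng5, a widely expressed form, was the highest gamma gene at 326 and 289 FPKM, and Gng12 had 36.7 and 41.8 FPKM. Among the 6 expressed gamma genes the median difference was -0.18, so Gng13 at -0.24 had other gamma genes near it, such as Gng5 at -0.17.

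The CALHM genes were all low, with Calhm2 the highest. Calhm1 held 17.4% of the summed FPKM of 5 CALHM genes at 2 months and 22.2% at 6 months, with rank 3 of the 5 at both ages. Calhm2 had 6.25 FPKM at 2 months and 5.87 at 6 months, and Fam26e 4.84 and 3.65 FPKM. In the 7 families with a measured member, each with 3 to 13 expressed genes, 0 expressed genes reached a 1.5-fold difference between the ages. Over all expressed genes 2.77% reached it, or 2.16% without those listed at 0 at 1 age. With so small a share, 0 is no result particular to these families.

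RGS proteins, which speed the shutdown of G protein signals, were measured for 19 genes other than Rgs21, and 15 of them were expressed. Rgs12 was highest with 26.8 FPKM at 2 months and 29.1 at 6 months, followed by Rgs19 with 13.2 and 11.6 FPKM. One RGS gene reached a 1.5-fold difference, Rgs4, with 1.69 FPKM at 2 months and 3.11 at 6 months, and it was named after its values were seen.

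**Figure D3:**
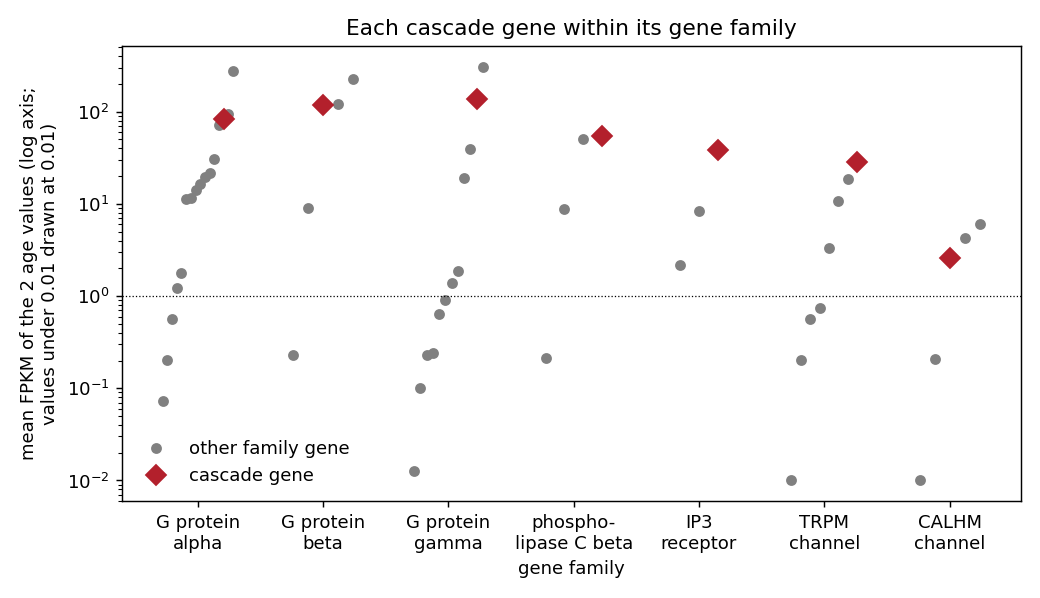
Mean of the 2 age values in FPKM, on a log axis, for every gene of the 7 families with a measured cascade gene; red diamonds are the cascade genes, grey circles their relatives, and the dotted line is 1 FPKM. Plcb2, Itpr3 and Trpm5 are the highest of their families, whereas Gnat3, Gnb3, Gng13 and Calhm1 have at least 1 relative above them.

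The receptors that feed the cascade were lower in summed level than the cascade, and the bitter receptors and the Tas1r genes lay on opposite sides of it in their differences. The 35 bitter receptor genes (Tas2r) summed to 120.7 FPKM at 2 months and 105 at 6 months, and 3 Tas1r genes for sweet and umami receptors summed to 22.7 and 29.0 FPKM. The bitter to sweet and umami ratio was 5.33 at 2 months and 3.61 at 6 months, and the cascade serves both kinds of receptor. For Tas1r3, which is in this ratio, the paper found no change between these ages by qRT-PCR. The median difference of the cascade, -0.07, lay between that of the 30 expressed Tas2r genes, -0.19, and the differences of the Tas1r genes, 0.08 to 0.47. Of the 30 Tas2r genes 25 were lower at 6 months, where 53.7% of all expressed genes were lower. With the same total without small RNA genes 21 of the 30 were lower. The share of all expressed genes was not computed under that scaling, which put their median at 0.07.

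Other genes of type II cells, the Tas1r genes included, were mixed in direction. Of 12 such genes outside the cascade, 10 were expressed, 6 higher and 4 lower at 6 months (9 and 1 with the same total without small RNA genes), with a median difference of 0.05, and 0 of the 10 reached a 1.5-fold difference. Of all expressed genes 53.7% were lower and 2.77% reached 1.5-fold as deposited, and the scaling without small RNA genes put their median at 0.07. Pou2f3, the transcription factor of the type II lineage, had 16.3 FPKM at 2 months and 15.9 at 6 months. Atp2a3, a calcium pump that refills the store Itpr3 empties, had 41.8 and 42.3 FPKM. Ric8, an exchange factor and chaperone for G alpha subunits, had 23.5 and 23.3 FPKM, and Gna14, an alpha subunit of the Gq class, 11.5 and 11.2 FPKM. Panx1, a pannexin channel also proposed for ATP release, had 17.2 FPKM at 2 months and 15.2 at 6 months. The widest difference of the list was 0.47, for Tas1r3, the subunit shared by the sweet and umami receptors. The paper used Tas1r3 as a taste control in qRT-PCR and found it unchanged between 2 and 6 months. It also states that taste cell markers were unchanged in its sequencing data. Relative to Tas1r3 all 7 members were lower at 6 months, with a median of -0.57 on the log2 scale of the FPKM ratio. Relative to the sweet receptor subunit Tas1r2 and the sodium channel gene Scn3a 6 of the 7 were lower, with medians of -0.32 and -0.33. Relative to Panx1 6 of the 7 were higher, and relative to each of the other 6 expressed genes 4 or 5 of the 7 were lower. Tas1r3, Tas1r2 and Scn3a lay above the upper quartile of all expressed genes, 0.08, and Panx1 below the lower, -0.10. Most expressed genes therefore had the same directions relative to these genes.

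The genes listed as markers of all taste bud cells were lower at 6 months under every scaling tried. Krt8, a keratin of differentiated taste cells, had 234 FPKM at 2 months and 197 at 6 months, and the 4 such markers Krt8, Krt18, Krt19 and Kcnq1 had differences from -0.43 to -0.23. As a ratio to Krt8, all 7 members were higher at 6 months, by 0.01 for Gng13 to 0.52 for Itpr3 on the log2 scale of the FPKM ratio. Gnat3 stood at 36.2% of Krt8 at 2 months and 40.6% at 6 months, and Plcb2 at 22.7% and 28.0%. All 7 were also higher relative to Krt18 and Kcnq1, and 6 of the 7 relative to Krt19. All 4 markers lay below the lower quartile of all expressed genes, -0.10, so most expressed genes were higher relative to them too. These counts are thus not particular to the cascade. The ratios to the 4 markers are free of the scaling of the ages, and whether they exceed the spread between pools was not tested. The pools also held cells other than taste cells, and the part of those cells in the 4 markers was not tested.

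Markers of the other taste cell types gave mixed directions. The type I genes Entpd2, which breaks down ATP outside the cell, and Kcnj1, a potassium channel, had differences of -0.19 and -0.23, and 6 of the 7 members were higher relative to Entpd2 and 7 of 7 relative to Kcnj1. The third type I marker, the glutamate transporter gene Slc1a3, was under 1 FPKM at both ages and went the other way, with 0.710 FPKM at 2 months and 0.988 at 6 months, a difference of 0.22. The 8 type III genes, of the cells that sense sour taste and form synapses, had a median difference of 0.16, with 6 higher and 2 lower. Relative to Pkd1l3, Gad1 and Ddc, all 7 members were lower at 6 months, and relative to Ncam1 all 7 were higher. Relative to Snap25, Car4 and Pkd2l1 5 of the 7 were lower, and relative to Otop1 6 of the 7 were higher. Ncam1 was near the limit for expressed genes, with 1.14 FPKM at 2 months and 0.928 at 6 months. The type III list thus gave no single direction for the ratio to the cascade, though relative to each of its 6 higher genes most members were lower. Entpd2, Kcnj1, Ncam1 and Otop1 lay below the lower quartile of all expressed genes, -0.10. Pkd1l3, Gad1, Ddc, Snap25, Car4 and Pkd2l1 lay above the upper, 0.08. Most expressed genes therefore had the same directions relative to these markers.

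**Figure D4:**
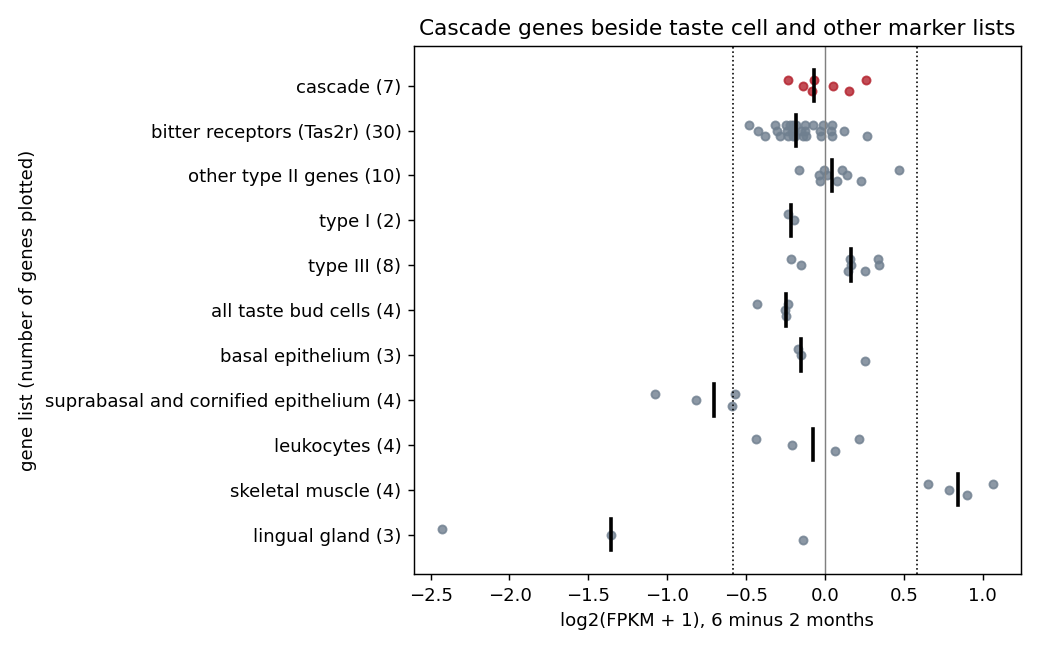
Difference in log2(FPKM + 1), 6 minus 2 months, on the horizontal axis for each gene (points) of the cascade in red and of 10 other lists in grey, with black bars at the list medians, dotted lines at a 1.5-fold difference and the number of genes plotted in brackets; genes listed at 0 at an age are left out. The cascade genes stay within the dotted lines around a median of -0.07. The receptor, type I, type II, type III, taste bud, basal epithelium and leukocyte lists also stay within them. The cornified epithelium, muscle and gland lists reach beyond them.

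Markers of cells other than taste cells were present, and several differed more between the ages than the cascade did. Basal epithelial keratins were far above the cascade, with Krt5 at 2180 FPKM at 2 months and 1962 at 6 months and Krt14 at 1287 and 1533 FPKM, and the 3 basal markers summed to 3573 and 3589 FPKM. Of 6 suprabasal and cornified markers, 4 (Krt1, Krt10, Ivl and Lor) were lower at 6 months, with differences from -1.08 to -0.57. Krt13 was listed at 0 at both ages, and Krt4 was listed at 7334 FPKM at 2 months and at 0 at 6 months, which can be a failed estimate. All 3 expressed gland markers of 4 were lower, and the 4 gland markers summed to 133 and 43.6 FPKM. Lipf had 83.7 and 14.7 FPKM and Bpifb1 28.6 and 10.6 FPKM. Muc5b, at 20.1 and 18.2 FPKM, did not reach 1.5-fold. All 4 expressed skeletal muscle markers of 5 were higher, and the 5 summed to 7.32 and 16.7 FPKM.

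Leukocytes also express Plcb2, so their markers were set beside it. The 5 leukocyte markers summed to 308 FPKM at 2 months and 266 at 6 months, of which the macrophage lysozyme gene Lyz2 gave most, at 293 and 254 FPKM. Of the 5, 2 were lower at 6 months, Lyz2 and the macrophage gene Cd68, which had 10.0 and 7.15 FPKM, and 3 were higher. The 3 were Csf1r, the receptor of a macrophage growth factor, at 2.56 and 3.13 FPKM, the pan-leukocyte gene Ptprc at 1.54 and 1.65 FPKM, and the T cell gene Cd3e, under 1 FPKM at both ages, at 0.370 and 0.822 FPKM. The part of these other cells in the values of the cascade genes was not tested.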

How the data were processed

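RNA was sequenced from 3 pools of taste cells at 2 months and 3 at 6 months, from poly(A)-selected TruSeq libraries. The authors mapped reads to GRCm38/mm10 with TopHat 2.0.7 and RefSeq genes, quantified them with Cufflinks 2.1.1 and deposited 1 FPKM value per gene and age from Cuffdiff, whose library normalization is not given in the sources used here. The table also holds the authors' own p-value for each gene, which was not used. Column letters B and S were matched to the sample titles.

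Differences were computed with a pseudocount of 1, over genes averaging 1 FPKM or more, and called at 1.5-fold. With 1 value per age, no test was run, and no SD or depth was available. Members and gene lists were chosen with earlier results of these data known. Named genes are the members, the 2 highest relatives in each family and list genes. Gnat1, Gnat2, Trpm8 and Rgs4 were named outside this rule after their values were seen, and Chtf18, Tssc4 and Itpr3os for sharing exons with a member. Genes listed at 0 at 1 age were left out of list medians. A further leukocyte marker was left out of its list and is not reported here. The functions were tested on simulated data, where 200 of 200 changed genes among 9311 were called. Those changes were set well past the fold used, with small noise, on genes averaging 5 FPKM or more, so the calls were assured. The simulation checks the code and does not measure how well differences of the size seen here are called. The scripts ran in Python 3.11.15 with pandas 2.3.3, numpy 2.4.6 and matplotlib 3.10.9.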

Additional observations from a re-analysis of the deposited data

How the results depend on the processing

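No paired analysis was possible because single libraries have no values here, and for the same reason no replicate could be left out. Of 113 recomputed values, 107 moved by less than 0.1 on the log2 scale, 5 percentage points of a family share, or 1.5 times for a count, and 6 moved further. Tolerances stand in for the spread between libraries, which is unknown. Scaling to the same upper quartile shifts a log2 difference by at most 0.022, and scaling without small RNA genes by at most 0.096. Both are under the tolerance, so no log2 difference could be counted as moved by them. The count of 107 is therefore no measure of robustness. The number of members lower at 6 months was 4, and 2 with the same total without small RNA genes, which multiplied the 6 month values by 1.07. The median of the members was then 0.03, with Gnat3 at 0.01 and Trpm5 at 0.03. That scaling also kept genes listed at 0 at 1 age, such as Krt4, in its total, so it does not reflect small RNA genes alone. The other moved values were medians of the leukocyte, muscle and gland markers. Under the pseudocounts of 0.1 and 0, both scalings and the other folds, 0 of the 7 members passed the fold used.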

Other observations

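Likeness to a member was measured as the distance of a gene from it over the levels at the 2 ages, in log2(FPKM + 1), among the taste and marker lists. The nearest gene to Calhm1 was the bitter receptor gene Tas2r110, with 2.13 FPKM at 2 months and 2.77 at 6 months, at a distance of 0.11. The nearest to Itpr3 was Atp2a3 at 0.25, to Plcb2 Entpd2 at 0.31 and to Trpm5 Pkd1l3 at 0.30. The nearest to Gnat3, Gnb3 and Gng13 was Trp63, a basal cell factor, at 0.39, 0.35 and 0.64. Between 133 and 858 genes of the table were as near to a member as its listed neighbour, so likeness over 2 values singles out no gene.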
